A study of Homo sapiens with 6 samples.

Results

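The p62 and NRF2 oxidative stress genes are 10 genes taken by name from 53492 genes measured by RNA sequencing. They are Sqstm1, which encodes the autophagy receptor p62, the regulators Nfe2l2 (NRF2), Keap1 and Mafg, and 6 genes known as NRF2 targets, Gclc, Gclm, Txnrd1, Srxn1, Nqo1 and Hmox1. Each name stood on 1 identifier, and all 10 genes had a mean above the filter of 1 FPKM (FPKM counts fragments scaled by transcript length and library size). The names were chosen by pathway and with log2 fold changes of this comparison, that of Sqstm1 among them, already known. Differences of the 10 genes between the groups are therefore given as a description, with no test of the set.

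The 6 libraries were made from polyadenylated RNA and fall into 2 groups of 3. Cells of the first group were transfected with pCS2-eGFP-CCNB1IP1, a vector for green fluorescent protein (GFP) joined to CCNB1IP1, a ubiquitin ligase, also called HEI10, that acts in meiotic recombination. Cells of the second group received pCS2-eGFP-N, the vector for GFP alone. Both groups are labelled SH-SY5Y, a human neuroblastoma line with features of sympathetic neurons. The sources used here give neither the time after transfection nor the share of cells that took up a vector. They do not say that the replicates were separate cultures, and p-values then reflect a spread between libraries that may be technical.

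All 53492 identifiers in the tables are those of mouse genes, so every value here is that of a mouse gene in a library labelled as human. Mouse Ccnb1ip1 (ENSMUSG00000071470.5) had 7.36e-08, 0.133 and 0.191 FPKM in the GFP-CCNB1IP1 libraries and 0.0334, 0.125 and 0.0698 FPKM in the GFP libraries, close to 0 in both groups. The introduced sequence was not analysed here, so the labels of the groups were not checked by it. Relative depth, read from the deposited intervals and scaled to a GFP mean of 1, ran from 0.743 in GFP-CCNB1IP1 replicate 2 to 1.058 in GFP replicate 2. Of the 13 noradrenergic neuroblastoma markers looked up, 10 passed the filter and Dbh, Ddc and Slc18a1 did not. Their summed level was 803.4 to 885.5 FPKM in the GFP-CCNB1IP1 libraries and 943.0 to 1033.8 FPKM in the GFP libraries, without overlap, and its part in the results below was not tested. Summed levels of the fibroblast, glial, epithelial and endothelial markers were under 10 FPKM in every library. GFP-CCNB1IP1 replicate 2 stood apart in 9 blood and immune markers, which summed to 15.6 FPKM there, against 0.539 and 1.02 FPKM in the other libraries of its group and 0.938 to 1.14 FPKM in the GFP libraries. The macrophage genes Lyz2, Csf1r and Cd68 had 11.1, 2.05 and 1.47 FPKM in that replicate, and each was under 1 FPKM in the other 5 libraries. Results are given with and without this library where it changes them.

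NRF2 is a transcription factor that cells make continuously and destroy continuously. KEAP1 holds it on a CUL3 ubiquitin ligase, and oxidants or electrophiles that modify KEAP1 let NRF2 accumulate, pair with a small MAF protein such as MAFG and switch on genes that carry an antioxidant response element. p62 links the pathway to autophagy: it binds KEAP1 in the place of NRF2 and carries it to the autophagosome, and its own gene is an NRF2 target. NRF2 is controlled mainly through the stability of its protein, so its activity is not read from its transcript alone. In catecholamine-handling cells, oxidation of the transmitter is a known source of peroxide.

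Sqstm1 and 2 target genes lay higher in every GFP-CCNB1IP1 library than in any GFP library, while the transcripts of NRF2, KEAP1 and MAFG had nearly equal means. The 3 genes were Sqstm1, with a ratio of means of 1.23, Gclm, with 1.29, and Srxn1, with 1.16. Nqo1 had a ratio of 1.22 with overlapping groups. The other 6 genes had log2 fold changes within 0.1 of 0. None of the 10 passed at an adjusted p under 0.05 in the fit across all 13231 genes (limma, Benjamini-Hochberg; adjusted p from 0.176 to 1.0), where 0.00756% of all genes passed. At an unadjusted p under 0.05 there were 3 members higher and 0 lower, beside 5.59% of all genes higher and 5.77% lower. The groups did not overlap for those 3 members, beside 8.7% of all genes with GFP-CCNB1IP1 higher and 8.9% with it lower. As the members were chosen with this comparison known, nothing is read from these shares.

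Sqstm1 (ENSMUSG00000015837.16) lies on chromosome 11, from 50090193 to 50101654, in coordinates of a mouse build that no source used here names. It had 519.8, 492.5 and 481.0 FPKM in the GFP-CCNB1IP1 libraries and 406.7, 417.5 and 390.7 FPKM in the GFP libraries. The lowest GFP-CCNB1IP1 value was thus above the highest GFP value. Means were 497.7 ± 19.9 FPKM in the GFP-CCNB1IP1 libraries and 405.0 ± 13.5 FPKM in the GFP libraries (SD, n = 3 each), and the log2 fold change of FPKM + 1 was 0.30 (SE 0.047). It was also the only member whose deposited intervals were apart for all pairs of libraries between the groups, with a lowest lower bound of 461.0 FPKM in the GFP-CCNB1IP1 libraries and a highest upper bound of 435.0 FPKM in the GFP libraries. With each library left out in turn the log2 fold change stayed between 0.27 and 0.32, and it was 0.30 without GFP-CCNB1IP1 replicate 2. Fewer cells with a given level and less RNA per cell cannot be told apart in such bulk libraries.

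The regulators of the pathway differed by less than the spread between replicates. Nfe2l2 (ENSMUSG00000015839.7, chromosome 2, 75505857 to 75534985) had 26.9, 23.9 and 27.1 FPKM in the GFP-CCNB1IP1 libraries and 25.5, 26.6 and 25.8 FPKM in the GFP libraries. The groups overlapped, and GFP-CCNB1IP1 replicate 2, the library with blood cell transcripts, was the lowest of all 6. The log2 fold change was -0.00071 (SE 0.063) with all libraries and 0.056 without that replicate, when the remaining values of the GFP-CCNB1IP1 group lay above all GFP values. The margin was narrow, with 26.94 FPKM in GFP-CCNB1IP1 replicate 1 and 26.59 FPKM in GFP replicate 2. Keap1 (ENSMUSG00000003308.16, chromosome 9, 21141026 to 21150657), which encodes the adaptor that presents NRF2 for destruction, had 12.0, 12.3 and 11.7 FPKM in the GFP-CCNB1IP1 libraries and 13.0, 11.3 and 11.7 FPKM in the GFP libraries. The GFP libraries held both the lowest and the highest of the 6 values. Mafg (ENSMUSG00000051510.14, chromosome 11, 120515943 to 120524426), which encodes a small MAF partner of NRF2, had 45.0, 47.8 and 43.5 FPKM in the GFP-CCNB1IP1 libraries and 49.0, 40.3 and 45.8 FPKM in the GFP libraries. Log2 fold changes were 0.0058 (SE 0.070) for Keap1 and 0.015 (SE 0.077) for Mafg, and both changed sign when single libraries were left out.

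Glutamate-cysteine ligase makes the first and rate-limiting step of glutathione synthesis, and its 2 subunit genes differed in their values. Gclm (ENSMUSG00000028124.16, chromosome 3, 122039206 to 122064381), the modifier subunit gene, had 100.9, 108.0 and 124.4 FPKM in the GFP-CCNB1IP1 libraries and 91.8, 73.3 and 92.6 FPKM in the GFP libraries. The groups did not overlap, but each was wide, with means of 111.1 ± 12.1 FPKM in the GFP-CCNB1IP1 libraries and 85.9 ± 10.9 FPKM in the GFP libraries (SD, n = 3 each). The log2 fold change was 0.37 (SE 0.108) and was 0.26 without GFP replicate 2, whose 73.3 FPKM was the lowest value. Gclc (ENSMUSG00000032350.10, chromosome 9, 77661817 to 77701767), the catalytic subunit gene, had 22.4, 23.3 and 21.1 FPKM in the GFP-CCNB1IP1 libraries and 22.3, 20.2 and 20.3 FPKM in the GFP libraries. GFP replicate 1 lay inside the range of the other group, and the log2 fold change was 0.086 (SE 0.065). It was 0.054 without GFP-CCNB1IP1 replicate 2 and 0.13 without GFP replicate 1.

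The members of the thioredoxin and peroxiredoxin branch also differed in their values. Srxn1 (ENSMUSG00000032802.9, chromosome 2, 151947436 to 151953296), the gene of sulfiredoxin, which restores over-oxidised peroxiredoxins, had 42.7, 42.0 and 39.8 FPKM in the GFP-CCNB1IP1 libraries and 37.3, 35.1 and 35.3 FPKM in the GFP libraries. The groups did not overlap, the log2 fold change was 0.20 (SE 0.053), and it stayed between 0.18 and 0.23 with each library left out in turn. Txnrd1 (ENSMUSG00000020250.12, chromosome 10, 82669785 to 82733546), the gene of cytosolic thioredoxin reductase, had 121.7, 119.3 and 113.9 FPKM in the GFP-CCNB1IP1 libraries and 115.7, 115.0 and 115.1 FPKM in the GFP libraries. The GFP values were within 1 FPKM of each other, GFP-CCNB1IP1 replicate 3 was below them, and the log2 fold change was 0.037 (SE 0.043). It was 0.016 without GFP-CCNB1IP1 replicate 1 and 0.063 without GFP-CCNB1IP1 replicate 3.

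Nqo1 and Hmox1 are often used to report NRF2 activity. Nqo1 varied widely within both groups, and Hmox1 within the GFP libraries. Nqo1 (ENSMUSG00000003849.9, chromosome 8, 108114857 to 108129838), a quinone reductase gene, had 8.28, 6.75 and 7.09 FPKM in the GFP-CCNB1IP1 libraries and 5.98, 7.08 and 5.03 FPKM in the GFP libraries. GFP replicate 2 exceeded GFP-CCNB1IP1 replicate 2, so the groups overlapped. The log2 fold change was 0.26 (SE 0.123), 0.36 without GFP replicate 2 and 0.15 without GFP replicate 3. Hmox1 (ENSMUSG00000005413.9, chromosome 8, 75820249 to 75827217), the gene of the inducible heme oxygenase, had 36.4, 34.1 and 37.5 FPKM in the GFP-CCNB1IP1 libraries and 30.6, 38.9 and 35.0 FPKM in the GFP libraries. The GFP libraries held both its lowest and its highest value, and its log2 fold change was 0.053 (SE 0.088). Leaving out GFP replicate 1, the lowest, turned the sign, to -0.035. Leaving out GFP replicate 2, the highest, gave 0.13, and GFP-CCNB1IP1 replicate 2 gave 0.090 when it was left out.

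**Figure D1:**
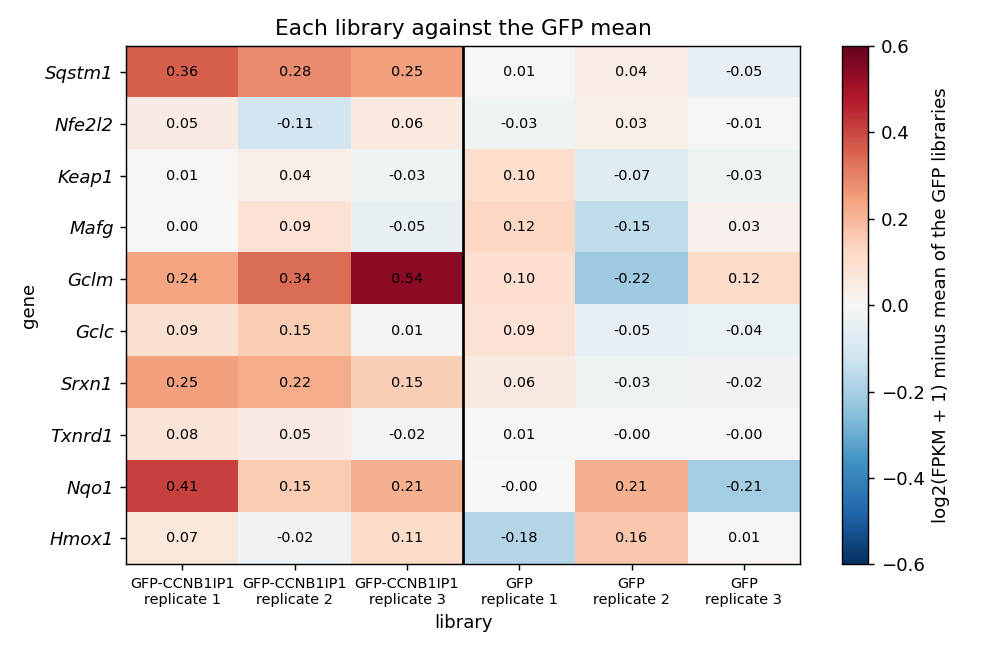
Heat map of log2(FPKM + 1) minus the mean of the 3 GFP libraries, for the 10 genes (rows, by role) in the GFP-CCNB1IP1 (left) and GFP (right) libraries. Sqstm1, Gclm and Srxn1 are above the GFP mean by 0.248 to 0.36, 0.237 to 0.537 and 0.146 to 0.246 in the GFP-CCNB1IP1 libraries, and GFP replicate 2 has low Gclm (-0.218) and high Nqo1 (0.211).

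**Figure D2:**
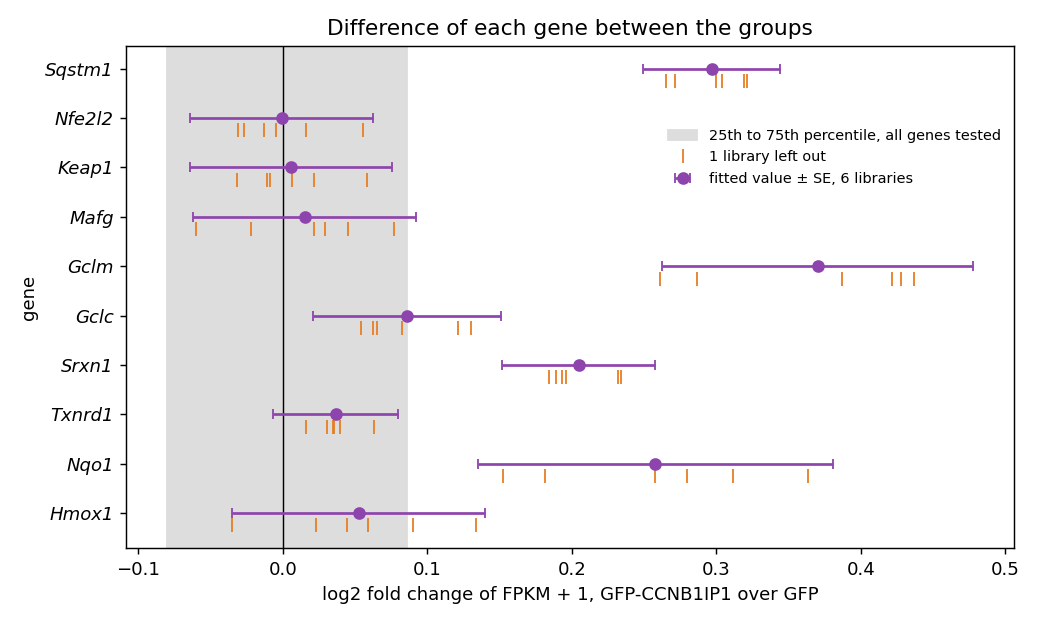
Log2 fold change of FPKM + 1, GFP-CCNB1IP1 over GFP, for each gene (points, with bars of 1 SE from limma), and the values with 1 library left out (ticks below each point). The grey band runs from the 25th to the 75th percentile of all genes tested, -0.080 to 0.086; Sqstm1, Gclm, Srxn1 and Nqo1 lie to its right with every library left out in turn.

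The median log2 fold change of the 10 genes was 0.069, beside 0.0037 over all genes tested, and 9 of the 10 were above 0, beside 51.4% of all genes. The median moved to 0.103 without GFP replicate 1. With GFP-CCNB1IP1 replicate 2 left out, 8 of the 10 were above 0, beside 7083 of 13167 genes fitted. Without GFP-CCNB1IP1 replicate 2 the groups did not overlap for 5 members, Nfe2l2 and Nqo1 in addition to the 3 above, beside 15.7% of all genes with the GFP-CCNB1IP1 group higher. For Nqo1 the nearest values were 7.093 and 7.08 FPKM, and for Nfe2l2 26.94 and 26.59 FPKM. These gaps were below the standard errors implied by the deposited intervals, 7.07% and 3.41% of the value. GFP replicate 2 was the lowest of the 6 libraries for 5 members and the highest for Hmox1. Summed over the 10 genes, the level was 917.8 ± 15.8 FPKM in the GFP-CCNB1IP1 libraries and 786.8 ± 10.3 FPKM in the GFP libraries (SD, n = 3 each). Of the difference of 131.0 FPKM, Sqstm1 made up 70.8%, Gclm 19.2% and Srxn1 4.3%.

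Across all 6 libraries the 10 genes covered a 67.4-fold range of mean level, and their order is a property that the choice of genes did not use. It is an order of mouse genes in libraries labelled human, and how this mismatch bears on levels of different genes was not tested. Sqstm1 was first with a mean of 451.4 FPKM, at percentile 99.2 of the tested genes, and Nqo1 last with 6.70 FPKM, at percentile 35.7. Between them came Txnrd1 (116.8 FPKM), Gclm (98.5), Mafg (45.2), Srxn1 (38.7), Hmox1 (35.4), Nfe2l2 (26.0), Gclc (21.6) and Keap1 (12.0). Sqstm1 was 3.87 times as high as Txnrd1, the widest step in this order. Of the 9 neighbouring pairs, 6 had ranges over the libraries that did not overlap. The ranges of Mafg and Srxn1 overlapped, although Mafg was above Srxn1 within each of the 6 libraries. The other 2 pairs, Txnrd1 with Gclm and Srxn1 with Hmox1, could not be ordered beyond their spread, with the first of each pair higher in 5 of 6 libraries. Leaving out any 1 library gave the same order of the 10 means.

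**Figure D3:**
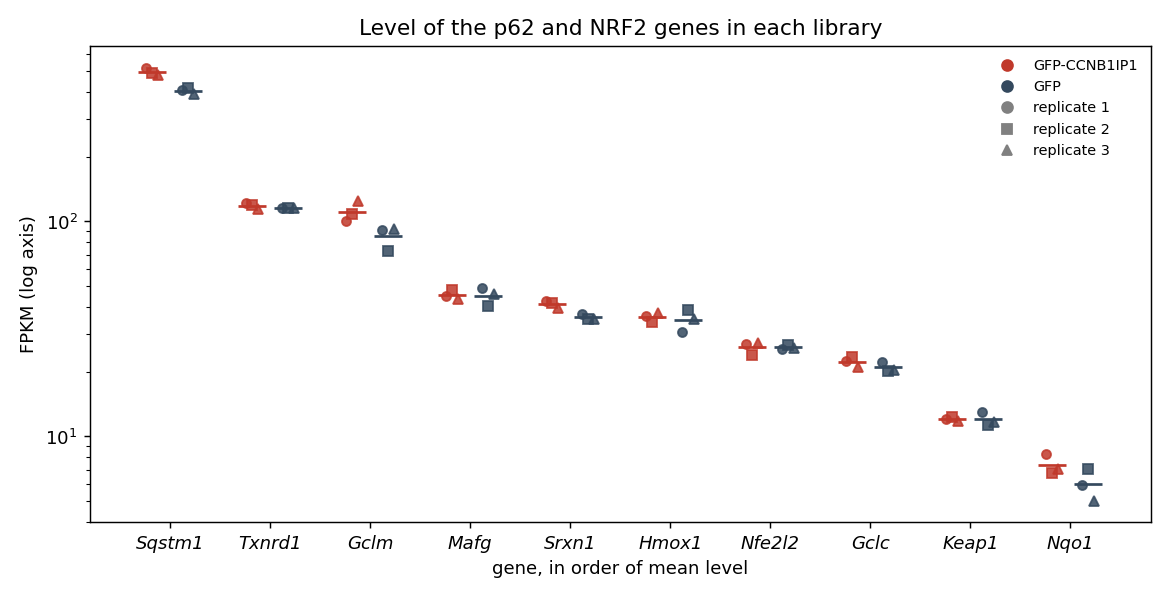
FPKM (log axis) of the 10 genes in each GFP-CCNB1IP1 and GFP library, in order of mean level; points are libraries with shapes for the replicate numbers, and lines are group means. Sqstm1, at 390.7 to 519.8 FPKM, is above the other genes in every library, and Nqo1, at 5.03 to 8.28 FPKM, is below them.

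Replicates varied most for Nqo1 and Gclm. The coefficient of variation of Nqo1 was 10.9% in the GFP-CCNB1IP1 libraries and 17.0% in the GFP libraries, and the standard error implied by its deposited intervals was 7.07% of the value. For Gclm the coefficient of variation was 10.8% in the GFP-CCNB1IP1 libraries and 12.7% in the GFP libraries, although the implied standard error was 3.32%. Sqstm1 varied by 4.0% in the GFP-CCNB1IP1 libraries and by 3.33% in the GFP libraries, with an implied standard error of 2.1%. Txnrd1 varied by 3.35% in the GFP-CCNB1IP1 libraries and by 0.34% in the GFP libraries, where the spread was below its implied standard error of 1.91%.

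Ratios within a library set genes of 1 complex or 1 step against each other on the FPKM scale. Gclm over Gclc, modifier over catalytic subunit, was 5.01 ± 0.760 in the GFP-CCNB1IP1 libraries and 4.10 ± 0.469 in the GFP libraries, and the groups overlapped. Nfe2l2 over Keap1, the factor over its inhibitor, was 2.16 ± 0.196 in the GFP-CCNB1IP1 libraries and 2.17 ± 0.191 in the GFP libraries, a difference far below the spread. Sqstm1 over Keap1 was 41.4 ± 1.70 in the GFP-CCNB1IP1 libraries and 33.9 ± 2.78 in the GFP libraries, without overlap. Sqstm1 over Nbr1, the gene of a related autophagy receptor, was 9.62, 9.92 and 9.94 in the GFP-CCNB1IP1 libraries and 8.50, 7.81 and 7.10 in the GFP libraries, also without overlap. Nbr1 itself had 50.7 ± 2.95 FPKM in the GFP-CCNB1IP1 libraries and 52.1 ± 3.79 FPKM in the GFP libraries. Keap1 and Nbr1 had close means in both groups, so these Sqstm1 ratios largely repeat the difference of Sqstm1. That difference was known when Sqstm1 was chosen.

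**Figure D4:**
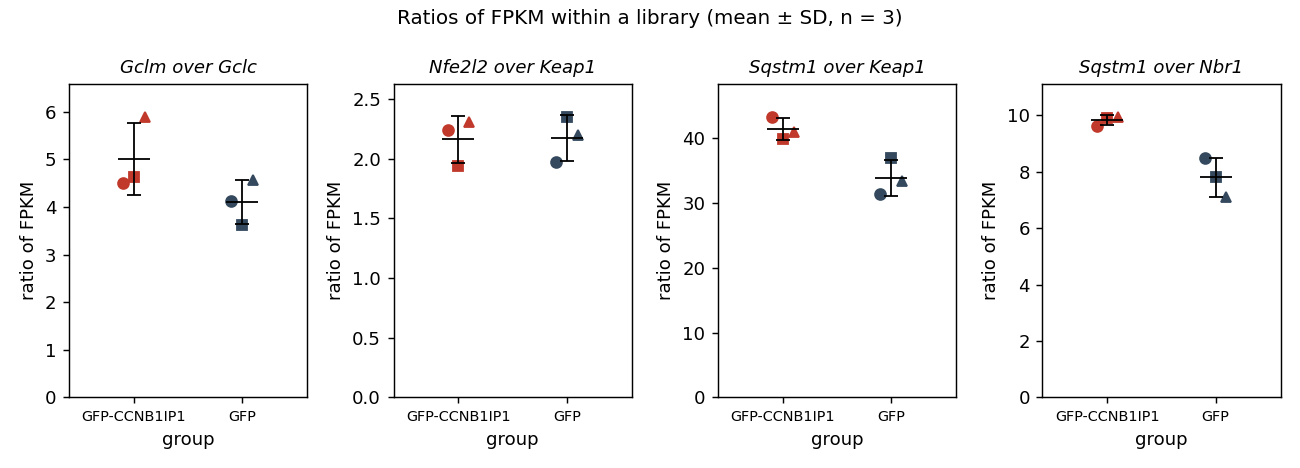
Ratio of FPKM of gene pairs within each library, GFP-CCNB1IP1 left and GFP right; points are libraries with shapes for the replicate numbers, and bars are the mean ± SD of 3. Sqstm1 over Keap1 and Sqstm1 over Nbr1 separate the groups (means of 41.4 and 9.83 with GFP-CCNB1IP1, against 33.9 and 7.80 with GFP), while Nfe2l2 over Keap1 does not (2.16 with GFP-CCNB1IP1, against 2.17 with GFP). The Sqstm1 ratios largely repeat the difference of Sqstm1, as Keap1 and Nbr1 had close means in both groups.

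Other genes of the pathway were read from 7 lists with 140 different measured genes, of which 118 passed the filter on low values. None passed the test (limma, adjusted p), and 11 higher and 3 lower had an unadjusted p under 0.05, or 9.32% and 2.54% of the 118, beside 5.59% and 5.77% of all genes. Of the 118, 80 (67.8%) had a positive log2 fold change, with a median of 0.066, beside 51.4% and 0.0037 over all genes. The groups did not overlap for 19 with GFP-CCNB1IP1 higher and 7 with it lower. These are 16.1% and 5.93% of the 118, beside 8.7% and 8.9% of all genes. Without GFP-CCNB1IP1 replicate 2 the counts were 31 higher and 11 lower, or 26.3% and 9.32% of the 118, beside 15.7% and 13.2% of all genes. In that case 78 of the 118 had a positive log2 fold change, beside 7083 of 13167 genes fitted. The lists were written with earlier results of these data known, so nothing is read from these shares. For each list below, the share of all genes above 0 is the same 51.4%, with a median of 0.0037.

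Among 18 measured regulators of NRF2, 13 were above 0 and the median log2 fold change was 0.067. Rbx1, the RING subunit of the CUL3 ligase, had 97.5 ± 3.80 FPKM in the GFP-CCNB1IP1 libraries and 88.1 ± 0.757 in the GFP libraries, and Gsk3b, a kinase that marks NRF2 for a second ligase, had 34.5 ± 0.496 FPKM with GFP-CCNB1IP1 and 31.9 ± 0.843 with GFP. Nfe2l1, which encodes the related factor NRF1, was the highest of the list, with 153.2 ± 5.16 FPKM with GFP-CCNB1IP1 and 142.4 ± 7.21 with GFP. Palb2, whose product can bind KEAP1, had 1.62 ± 0.405 FPKM with GFP-CCNB1IP1 and 2.82 ± 0.441 with GFP, and Bach2, a repressor gene of the family that competes for the same DNA element, had 1.88 ± 0.189 with GFP-CCNB1IP1 and 2.62 ± 0.368 with GFP. Groups did not overlap for these 5 genes, whose adjusted p ran from 0.272 to 0.496 (limma). All but Nfe2l1 were named for the smallest unadjusted p of the list, a choice that favours groups without overlap. Of the 18, groups did not overlap for 4 with GFP-CCNB1IP1 higher and 2 with it lower. Over all genes the shares were 8.7% and 8.9%.

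Of 24 measured glutathione and thioredoxin enzyme genes, 19 were above 0, with a median of 0.094. Slc7a11, the gene of the cystine transporter that supplies cysteine for glutathione, had 17.5, 18.4 and 19.7 FPKM in the GFP-CCNB1IP1 libraries and 15.4, 13.4 and 16.0 FPKM in the GFP libraries, which gives a log2 fold change of 0.30 with an SE of 0.081 (adjusted p = 0.278, limma). Txn1, the gene of the thioredoxin that Txnrd1 reduces, had 145.2 ± 6.73 FPKM in the GFP-CCNB1IP1 libraries and 130.3 ± 8.09 in the GFP libraries, and mitochondrial Txn2 had 146.6 ± 4.26 with GFP-CCNB1IP1 and 136.7 ± 2.74 with GFP. Oplah, of glutathione breakdown, had 4.63 ± 0.462 FPKM with GFP-CCNB1IP1 and 3.84 ± 0.0604 with GFP. The groups of these 4 genes, named for the smallest unadjusted p of the list, did not overlap. Those of Gpx4, the most abundant of the list at 298.3 ± 10.7 FPKM with GFP-CCNB1IP1 and 283.8 ± 15.5 with GFP, did. Of the 24, groups did not overlap for 7 with GFP-CCNB1IP1 higher, beside 8.7% of all genes, and 1 with it lower, beside 8.9%. The lower gene was Txnrd2, with 7.25 ± 0.349 FPKM with GFP-CCNB1IP1 and 8.08 ± 0.272 with GFP.

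Of 22 measured conjugation and export genes, 16 were above 0, with a median of 0.081. Gsto1, an omega-class glutathione transferase gene, had 20.9, 18.4 and 18.9 FPKM in the GFP-CCNB1IP1 libraries and 13.8, 15.7 and 14.7 FPKM in the GFP libraries, which gives a log2 fold change of 0.37 with an SE of 0.075 (adjusted p = 0.196, limma). The aldo-keto reductase gene Akr1b8 had 20.7 ± 0.363 FPKM with GFP-CCNB1IP1 and 17.9 ± 1.28 with GFP. Ephx1, an epoxide hydrolase gene, went the other way without overlap, with 50.7 ± 3.63 FPKM in the GFP-CCNB1IP1 libraries and 57.2 ± 1.46 in the GFP libraries. The glutathione transferase genes Gstm1 and Gstp1 had means of 49.6 and 233.4 FPKM in the GFP-CCNB1IP1 libraries and 43.2 and 213.9 FPKM in the GFP libraries, with overlap. Both belong to families of near-identical copies, so how reads were divided is uncertain.

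NADPH supplies the reducing power for both systems, and 6 of 10 measured genes of its supply were above 0, with a median of 0.030. Taldo1, the transaldolase gene of the pentose phosphate pathway, had 66.3 ± 1.66 FPKM in the GFP-CCNB1IP1 libraries and 61.0 ± 2.37 in the GFP libraries, without overlap. The groups overlapped for the other 4 genes named by the same rule. Pgd, Idh1, Idh2 and Mthfd2 had means of 55.2, 9.07, 48.6 and 87.5 FPKM with GFP-CCNB1IP1, and of 50.7, 7.82, 51.1 and 84.0 FPKM with GFP.

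Of 11 measured heme and iron genes, 7 were above 0, with a median of 0.041. The ferritin chain genes Ftl1 and Fth1 had means of 1679.8 and 1197.4 FPKM in the GFP-CCNB1IP1 libraries and 1548.1 and 1097.5 FPKM in the GFP libraries, with overlap. Both have many processed copies in the genome, so how reads were assigned is uncertain. Blvra, whose enzyme reduces the biliverdin that heme oxygenase makes, had 10.6 ± 1.04 FPKM with GFP-CCNB1IP1 and 9.02 ± 0.686 with GFP, and the porphyrin transporter gene Abcb6 had 24.4 ± 2.19 with GFP-CCNB1IP1 and 27.2 ± 1.47 with GFP. Their groups overlapped too. Slc7a11, given above, was named by the same rule for this list also, and its groups did not overlap. Of the 11 heme and iron genes, groups did not overlap for 2 with GFP-CCNB1IP1 higher, beside 8.7% of all genes. They did not overlap for 1 with it lower, beside 8.9%. Of 11 measured genes of superoxide and peroxide removal, 8 were above 0 and the median was 0.106, yet the groups overlapped for all 11. Msrb1 and Msrb3, of methionine sulfoxide repair, had means of 11.1 and 11.4 FPKM with GFP-CCNB1IP1, and of 9.05 and 10.1 FPKM with GFP. The log2 fold change of Msrb1 was 0.29 with all libraries and 0.15 without GFP replicate 1. The catalase gene Cat had 11.3 ± 0.489 FPKM with GFP-CCNB1IP1 and 10.4 ± 0.809 with GFP, and the superoxide dismutase gene Sod1 had 347.0 ± 17.6 with GFP-CCNB1IP1 and 365.7 ± 9.03 with GFP.

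Partners of p62 and other autophagy receptors were divided, with 13 of 24 measured genes above 0 and a median of 0.029. Gabarapl2, of the family of autophagosome proteins that p62 binds, had 49.9, 50.7 and 49.7 FPKM in the GFP-CCNB1IP1 libraries and 35.5, 48.6 and 43.5 FPKM in the GFP libraries. The groups did not overlap, and the GFP libraries had the wider spread. Its log2 fold change was 0.24 with all libraries and 0.12 without GFP replicate 1, where it was lowest. Atf4, a stress factor gene kept in this list because its product can induce Sqstm1, had 434.1 ± 15.0 FPKM with GFP-CCNB1IP1 and 389.5 ± 20.3 with GFP, without overlap. Tollip had 15.9 ± 0.799 FPKM with GFP-CCNB1IP1 and 14.7 ± 0.129 with GFP, without overlap, and Rb1cc1, of the complex that starts autophagy, had 19.7 ± 0.458 with GFP-CCNB1IP1 and 17.9 ± 1.92 with GFP, with overlap. Of the 24, groups did not overlap for 3 with GFP-CCNB1IP1 higher, beside 8.7% of all genes, and 2 with it lower, beside 8.9%. The lower genes were Traf6 and Map3k3, with means of 5.07 and 27.1 FPKM with GFP-CCNB1IP1, and of 5.59 and 28.4 FPKM with GFP.

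**Figure D5:**
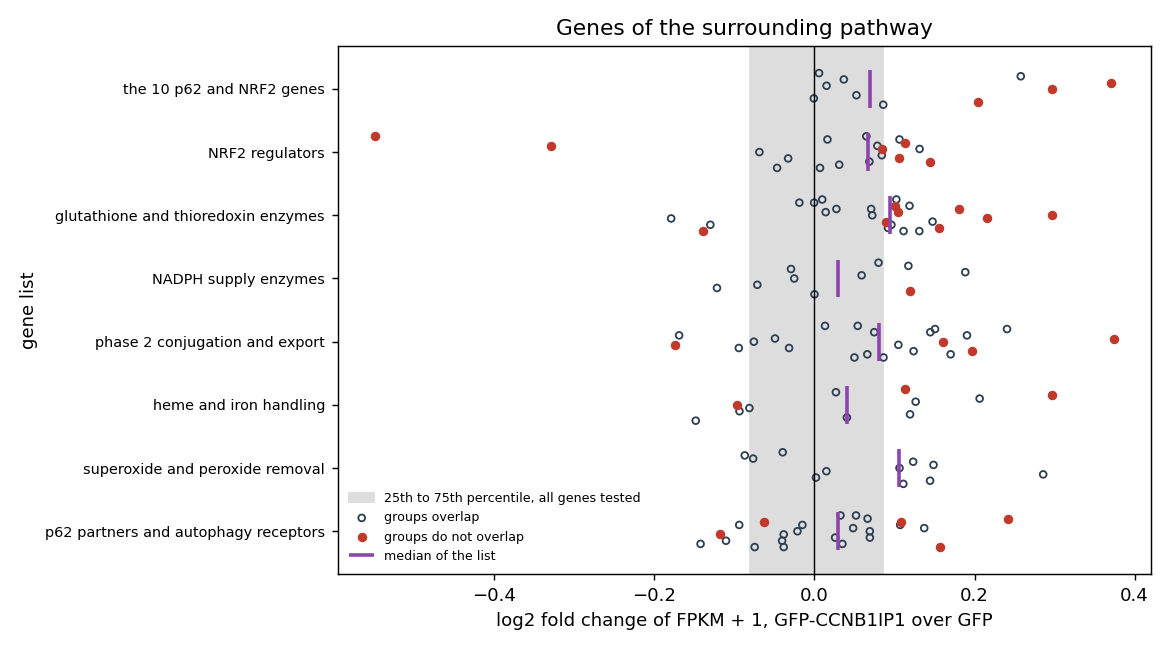
Log2 fold change of FPKM + 1, GFP-CCNB1IP1 over GFP, of each gene past the filter in the 10 p62 and NRF2 genes and 7 pathway lists (rows); filled points are genes whose groups do not overlap, and vertical bars are list medians. List medians run from 0.029 for the p62 partners to 0.106 for superoxide and peroxide removal, and the grey band is the range from the 25th to the 75th percentile of all genes tested.

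The 5 genes whose log2 values over the 6 libraries were most like those of Sqstm1, among 6953 others with a mean of at least 10 FPKM, were Plin2 (Pearson r of 0.997), Ddit3 (0.995), Utp11 (0.994), 1110004F10Rik (0.994) and Myadm (0.993). The 6 points fall into the 2 groups, so these values largely repeat the difference between them and are given as a description. Plin2, which encodes a lipid droplet coat protein, had 56.9 ± 2.29 FPKM in the GFP-CCNB1IP1 libraries and 47.2 ± 1.72 in the GFP libraries. Ddit3, the gene of the stress factor CHOP, had 150.8 ± 7.30 FPKM with GFP-CCNB1IP1 and 126.0 ± 3.78 with GFP. Of the members, Srxn1 was nearest to Sqstm1, with an r of 0.944, and Nfe2l2, Keap1 and Mafg were near 0, at 0.061, 0.046 and 0.0058.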

How the data were processed

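The members and gene lists were chosen with earlier results of these data known. Each library has its own deposited table, which per the file headers holds an FPKM for every gene and the bounds of its confidence interval. The submitters' processing notes list HISAT2 and Cufflinks, and no version, genome build or annotation is given in the sources used here. Strand is not stated, so reads of overlapping or antisense genes may not be separable. Per the labels' protocols, polyadenylated RNA was captured on beads and reverse transcribed from random primers.

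Each table had 53537 rows, and 38 identifiers on several rows were summed. Log2(FPKM + 1) was fitted with limma 3.58.1 (R 4.3.3, mean-variance trend, no block) over the 13231 genes with a mean of at least 1 FPKM, with Benjamini-Hochberg adjustment and calls at an adjusted p under 0.05; this scale understates the change of low genes. Read totals are not given, so depth is relative: the upper bound was read as 2 standard errors above the FPKM, and the squared ratio of FPKM to standard error as a number of fragments. Chromosome positions are the tables' own, with starts counted from 1. Besides the members and Ccnb1ip1, the text names, per list, up to 4 genes with the smallest unadjusted p and the gene with the highest mean, and the 5 genes most like Sqstm1. The blood cell genes, the markers below the filter, Nbr1, Txnrd2, Traf6 and Map3k3 were named after their values were seen. The symbols Map1lc3b, Wdr23 and Raptor matched no name. Wdr23 and Raptor are other names of Dcaf11 and Rptor, which were in the lists and were analysed. Map1lc3b was not analysed here. Alternatives were a pseudocount of 0.1 or 5, a minimum mean of 5 FPKM or none, TPM, quantile or median-of-ratios scaling, the replicate number as a block, limma with a robust prior or no trend, and leaving out each library.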

Additional observations from a re-analysis of the deposited data

How the results depend on the processing

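The count of 1 gene called over the whole table was 0 when the pseudocount was 5, when low genes were kept, with the replicate number as a block and in limma without the trend, and with 1 library left out it ran from 0 (without GFP replicate 2 or 3) to 4 (without GFP replicate 1), with 2 without GFP-CCNB1IP1 replicate 2; at an unadjusted p under 0.05 there were 1505, 2186, 1392 and 1438 genes under those 4 settings. No member was called under any of the 16 alternatives. The median log2 fold change of the members was 0.058 to 0.072 under the 10 settings that keep all libraries and 0.062 to 0.103 with each library left out in turn. Sqstm1 (0.27 to 0.32), Gclm (0.26 to 0.44), Srxn1 (0.18 to 0.23), Nqo1 (0.15 to 0.36), Gclc (0.054 to 0.13) and Txnrd1 (0.013 to 0.063) kept a positive log2 fold change under all 16. Those of the other 4 members, near 0 to begin with, changed sign: Keap1 was -0.0049 as TPM, and with each library left out in turn Keap1 ran from -0.032 to 0.058, Nfe2l2 from -0.031 to 0.056, Mafg from -0.060 to 0.077 and Hmox1 from -0.035 to 0.13. Of the 47 genes followed through these alternatives, the other 37 kept their sign, and for 14 of them leaving out 1 library moved the log2 fold change by over 1.5 times. Same-numbered libraries did not deviate together (correlations of 0.023, -0.009 and -0.011 across genes), so the replicate number is not taken as a pairing; with it as a block the smallest adjusted p of a member was that of Sqstm1, 0.349. With 3 libraries a group and no read totals, differences of the size of the standard errors, 0.043 to 0.123 on the log2 scale, could not be resolved. Larger ones were not called either: Sqstm1, at 0.2967 with an SE of 0.0474, had an adjusted p of 0.176 (limma).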
